A study of Arabidopsis thaliana with 4 samples.

Results

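The phi glutathione S-transferases described here are 7 genes of Arabidopsis thaliana, GSTF2 (AT4G02520), GSTF3 (AT2G02930), GSTF6 (AT1G02930), GSTF7 (AT1G02920), GSTF8 (AT2G47730), GSTF9 (AT2G30860) and GSTF10 (AT2G30870). They were taken by locus identifier, in a choice made with earlier results of these data known, from 22284 loci with reads in a root RNA sequencing study. All 7 were listed, each with 1 transcript model, and all 7 passed the filter on low counts that kept 14739 loci. The study has 4 libraries with 1 library per group. Seedlings were 6 days old and came either from wild type (Col-0) or from a line labelled as the double mutant of ARF10 and ARF16 in the same background (arf10/16 below), genes of auxin-responsive transcription factors. About 500 of them were placed for 24 h in a 2% nutrient solution of pH 5.0 with 0 or 10 µM AlCl3, and whole roots were then collected. By its title, the study is about how the double mutant's transcript response to aluminium (Al) differs.

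Glutathione S-transferases join the tripeptide glutathione to reactive, electrophilic molecules, which marks these for storage in the vacuole or for breakdown. The phi class belongs to plants, and several of its genes are known to be induced by pathogens, salicylic acid, ethylene, auxin and oxidants. Some phi proteins also act as binding proteins without catalysis, and GSTF2 is known to bind auxin-related indoles and the defence compound camalexin. In acid solution Al ions stop root growth and raise oxidative stress in root tips.

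Of the 7 genes, 6 form pairs that are near copies or neighbours, and GSTF8 belongs to none. GSTF6 and GSTF7 are neighbours on chromosome 1, and GSTF9 and GSTF10 are neighbours on chromosome 2, in the RefSeq annotation of TAIR10.1. GSTF3 and GSTF8 also lie on chromosome 2, and GSTF2 lies on chromosome 4. Coding sequences of GSTF2 and GSTF3 were 94.5% identical over 639 aligned bases, and those of GSTF6 and GSTF7 94.3% identical over 630. GSTF9 and GSTF10 shared 77.6%, and GSTF8 shared at most 52.2% with any other member. The first 60 coding bases of each pair are printed as an example of matching and differing bases, and they need not be typical of the whole sequence. Letters in capitals differ between the 2 genes of a pair, and the sequences are RefSeq's for TAIR10.1, read in the direction of the gene.
GSTF2: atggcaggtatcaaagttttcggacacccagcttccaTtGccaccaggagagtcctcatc
GSTF3: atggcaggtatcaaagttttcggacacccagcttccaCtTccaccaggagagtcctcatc
GSTF6: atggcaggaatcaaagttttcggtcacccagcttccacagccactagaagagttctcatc
GSTF7: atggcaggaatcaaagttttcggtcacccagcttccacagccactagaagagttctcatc
GSTF9: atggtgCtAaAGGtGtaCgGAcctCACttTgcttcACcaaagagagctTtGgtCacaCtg
GSTF10: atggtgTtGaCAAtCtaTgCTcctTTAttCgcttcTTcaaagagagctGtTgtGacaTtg

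In these windows GSTF2 and GSTF3 differed at 2 bases, GSTF6 and GSTF7 at 0, and GSTF9 and GSTF10 at 19. The longest run shared without a mismatch was 116 coding bases for GSTF6 and GSTF7, 74 for GSTF2 and GSTF3 and 26 for GSTF9 and GSTF10. Of all distinct 36-base windows in the RefSeq transcript, 56.5% for GSTF2 also occurred in another gene, mostly in TOC159. The share was 14.2% for GSTF6 and 13.9% for GSTF7, mostly in each other, and 9.69% for GSTF3, mostly in GSTF2. No such window was shared for GSTF9 or GSTF10. For GSTF8 it was 8.92%, mostly with AT2G47720, a gene annotated on the same strand over 341 of its exonic but 0 of its coding bases. Read length and the handling of shared reads are not stated by the labels or file headers, so the split between GSTF2 and GSTF3 and between GSTF6 and GSTF7 is uncertain. GSTF2 carries a second uncertainty, because in RefSeq the gene TOC159, of the chloroplast protein import machinery, runs on the opposite strand across all 639 of its coding bases. The strand setting of the counting is also not given. The TOC159 locus itself had 625 reads in wild type without Al, 542 in wild type with Al, 614 in arf10/16 without Al and 565 in arf10/16 with Al, and reads of the overlap cannot be told apart without strand.

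The libraries held 2080348 to 2280894 reads. ARF10 went against its label, with 110 reads in untreated wild type and 3820 in the untreated library labelled arf10/16 (142 and 2640 with Al), while ARF16 had 159 and 71 (75 and 41 with Al), so each direction between the lines below rests on the labels. All 9 root markers checked had reads in every library, and their summed level was 2493 and 2349 CPM (counts scaled to library size) without Al (wild type, arf10/16) and 585 and 717 CPM with Al. The summed level of 10 photosynthesis genes, markers of shoot tissue, was 46.0 to 97.8 CPM, with PSBO1 highest at 42 to 82 reads and LHCA1 and RBCS3B at 0 to 2. In whole roots, fewer cells of a type and less RNA per cell cannot be told apart. The part of the lower root markers with Al in the values below was not tested.

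Together the 7 genes took 0.282% of all reads in untreated wild type (exact 95% binomial interval 0.275 to 0.289%). In the other 3 libraries they took 0.481% (wild type with Al, 0.472 to 0.490%), 0.486% (arf10/16 without Al, 0.477 to 0.496%) and 0.472% (arf10/16 with Al, 0.463 to 0.482%). The untreated wild-type library was thus the low one, and the remaining 3 lay close together. Intervals here and below cover counting error only; without replicates, the variation among plants or cultures was not measured.

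The make-up of these reads also differed between libraries. In untreated wild type GSTF10 held 46.8% of the reads of the 7 genes (exact 95% interval 45.6 to 48.0%) and GSTF8 33.3% (32.1 to 34.5%). GSTF2 held 6.27% there (5.68 to 6.90%), and 44.0% in wild type with Al (43.1 to 44.9%). In arf10/16 its share was 13.0% without Al (12.4 to 13.7%) and 39.8% with Al (38.8 to 40.8%). GSTF7 held 6.11% in untreated wild type and 19.5% in untreated arf10/16 (18.8 to 20.3%), its highest share. GSTF3 and GSTF6 stayed at 0.824% of the reads or below in the 4 libraries.

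**Figure D1:**
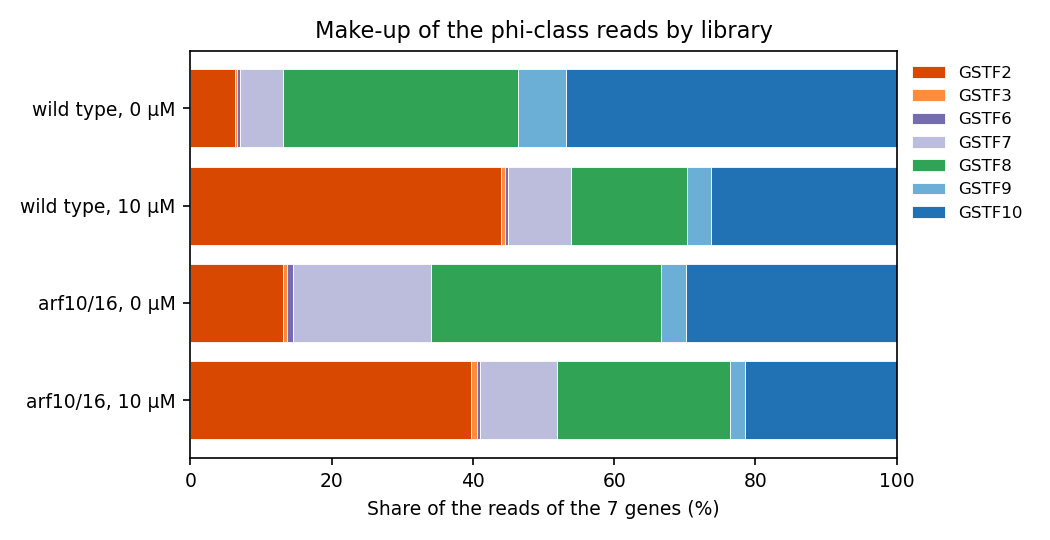
Share of the reads of the 7 phi genes held by each gene, in percent, for each of the 4 libraries. GSTF2 grows from 6.27% to 44.0% between the wild-type libraries and from 13.0% to 39.8% between the arf10/16 libraries, and GSTF7 is widest, at 19.5%, in untreated arf10/16.

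Levels per length are given as RPKM (reads per kilobase of model, scaled to library size), in the order wild type without Al, wild type with Al, arf10/16 without Al and arf10/16 with Al. In untreated wild type the order of the genes from the highest was GSTF10, GSTF8, GSTF9, GSTF7, GSTF2, GSTF6 and GSTF3. GSTF10 was at rank 22 of all loci by RPKM there, GSTF2 at rank 656 and GSTF3 at rank 9903. With Al, GSTF2 was the highest of the 7 in both lines and stood at rank 14 of all loci in each. In untreated arf10/16 GSTF7 took the second place, at rank 38 of all loci against 622 in untreated wild type. With 1 library per group there is no spread between replicates against which to set neighbours in this order.

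**Figure D2:**
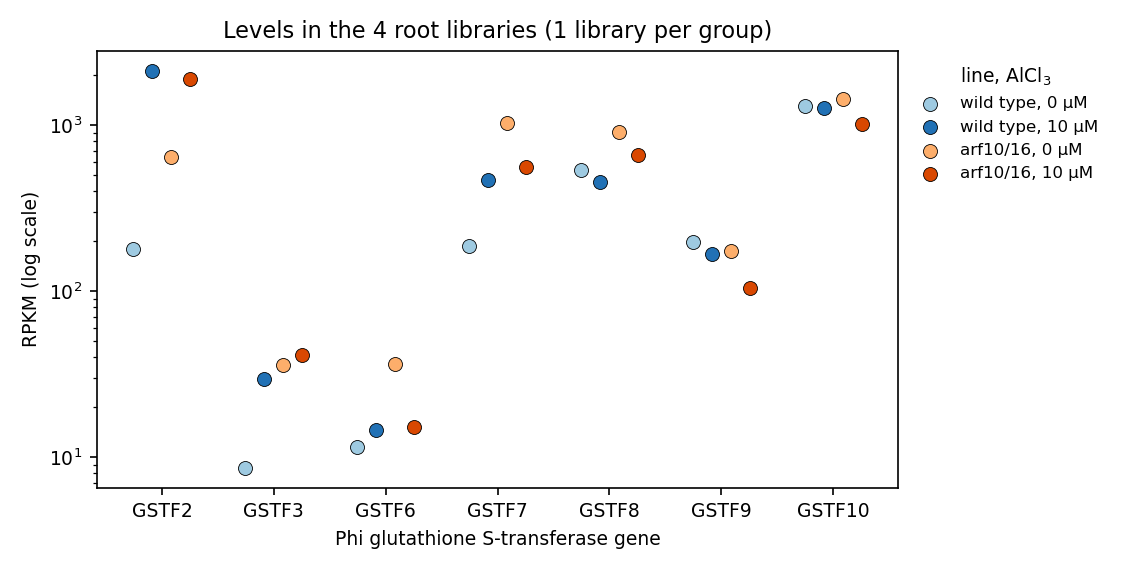
RPKM on a log scale for each of the 7 genes, with 1 point per library. Untreated wild type is the lowest point for GSTF2, GSTF3, GSTF6 and GSTF7, while the 4 points of GSTF10 lie between 1013 and 1451 RPKM.

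A fold between 2 libraries below is a ratio of counts scaled by TMM (a factor that centres most genes), with an exact 95% counting interval. No test of such a pair is possible. A gene was called higher or lower by size if its log2 ratio was at least 1 in size and the counting interval of the ratio excluded 1. The verbs rose and fell are kept for edgeR's quasi-likelihood test of an additive model of line and Al over all 4 libraries, which has 1 residual degree of freedom and takes unequal responses of the lines as error.

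The GSTF2 gene, whose protein binds indoles, had 395 and 4828 reads in wild type without and with Al, and 1388 and 3908 in arf10/16. Its levels were 179, 2140.3, 641 and 1899 RPKM. The library of untreated wild type stood lowest and the pair with Al highest. Wild type had 12.8 times the level with Al that it had without (11.6 to 14.2), and arf10/16 3.12 times (2.93 to 3.32). GSTF2 rose with Al in the additive model by 2.65 ± 0.55 on the log2 scale (SE; adjusted p = 0.0257, quasi-likelihood test of edgeR), higher in 2 of 2 pairs. It was the 1 member of 7 past this test for Al, against 15.2% of all loci that rose and 12.8% that fell. At an unadjusted p under 0.05 the count was 2 of 7 (40.0% of all loci), and DESeq2 (11.9% of all loci) and limma (26.2%) each called 1. Without Al it was 3.91-fold higher in arf10/16 than in wild type (3.49 to 4.38), while with Al the ratio of arf10/16 to wild type was 0.952 (0.913 to 0.993).

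GSTF3, the near-identical copy of GSTF2, had far fewer reads. It had 18 and 63 reads in wild type without and with Al, and 74 and 81 in arf10/16 (8.59, 29.4, 36.01 and 41.5 RPKM). Untreated wild type was again the low library, and the other 3 lay closer together, with a ratio of arf10/16 to wild type under Al of 1.51 (1.08 to 2.14). In wild type it was 3.67-fold higher with Al (2.14 to 6.58), and without Al it was 4.57-fold higher in arf10/16 than in wild type (2.70 to 8.14). In arf10/16 the ratio of Al to no Al was 1.21 (0.874 to 1.69). The additive effect of Al was 0.90 ± 0.37 on the log2 scale and did not pass edgeR's quasi-likelihood test (adjusted p = 0.125). Per length, GSTF2 stood 20.8-fold over GSTF3 in untreated wild type and 72.8-fold in wild type with Al, and 17.8- and 45.8-fold in arf10/16.

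GSTF7, a gene known for induction by pathogens and salicylic acid, had 385 and 985 reads in wild type without and with Al. In arf10/16 it had 2081 without and 1083 with Al, and its levels over the 4 libraries were 186, 467, 1028 and 563 RPKM. The highest library was untreated arf10/16, and the 2 libraries with Al lay between the untreated ones. With Al the gene was 2.68-fold higher in wild type (2.38 to 3.02) but 1.74-fold lower in arf10/16 (1.61 to 1.87), the latter short of the size needed for a call. Without Al it was 6.01-fold higher in arf10/16 than in wild type, and with Al the fold was 1.29 (1.19 to 1.41). Neither additive effect passed edgeR's quasi-likelihood test (Al 0.30 ± 0.57, adjusted p = 0.741; line 1.47 ± 0.58, adjusted p = 0.343); the Wald test of DESeq2 called the line effect (adjusted p = 0.0431).

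GSTF6, whose enzyme is known to join glutathione to an indole intermediate of camalexin, is the neighbour of GSTF7. It had 27 and 35 reads in wild type without and with Al, and 83 and 33 in arf10/16 (11.5, 14.6, 36.1 and 15.1 RPKM). A single library, untreated arf10/16, stood above the remaining 3. Without Al the gene was 3.42-fold higher in arf10/16 than in wild type (2.19 to 5.49), and within arf10/16 the ratio of Al to no Al was 0.440 (0.285 to 0.667), a call as lower. In wild type the ratio of Al to no Al was 1.36, and its interval of 0.799 to 2.33 included 1. Per length GSTF7 exceeded GSTF6 by 16.2- to 37.2-fold in the 4 libraries. Because these genes share coding stretches of up to 116 bases, part of the GSTF6 reads may be reads of GSTF7, which was not tested.

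GSTF8, known as a marker of early stress responses and of root defence, has a long transcript with an alternative start that adds a plastid signal. It had 2098 and 1799 reads in wild type without and with Al, and 3467 and 2399 in arf10/16 (542, 455, 913 and 665 RPKM). Its 2 arf10/16 libraries were above both wild-type libraries. The fold of arf10/16 over wild type was 1.84 without Al (1.74 to 1.94) and 1.57 with Al (1.48 to 1.67), both under the size for a call. Its line effect of 0.76 ± 0.20 on the log2 scale had the smallest unadjusted p of the members (0.00404) and did not pass after adjustment over all loci (adjusted p = 0.102, quasi-likelihood test of edgeR). With Al the ratio was 0.898 in wild type (0.843 to 0.957) and 0.766 in arf10/16 (0.727 to 0.808).

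GSTF9, an enzyme with glutathione peroxidase activity, and its neighbour GSTF10, whose protein is known to bind the receptor kinase BAK1, passed the size rule in 0 comparisons. GSTF9 had 429 and 371 reads in wild type without and with Al and 369 and 210 in arf10/16 (198, 168, 174 and 104 RPKM). The library of arf10/16 with Al was the low one, at a ratio of 0.630 to its untreated library (0.529 to 0.749) and 0.666 to wild type with Al (0.559 to 0.791). GSTF10 had 2948, 2891, 3183 and 2112 reads in the same order (1318, 1265, 1451 and 1013 RPKM). It too was lowest in arf10/16 with Al, at a ratio of 0.735 to the untreated library (0.695 to 0.777). In wild type its ratio of Al to no Al was 1.03 (0.976 to 1.08), log2 0.04 under TMM but -0.06 when scaled by total counts. Per length GSTF10 was 6.66- to 9.75-fold over GSTF9, a range narrower than for the other close pairs.

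**Figure D3:**
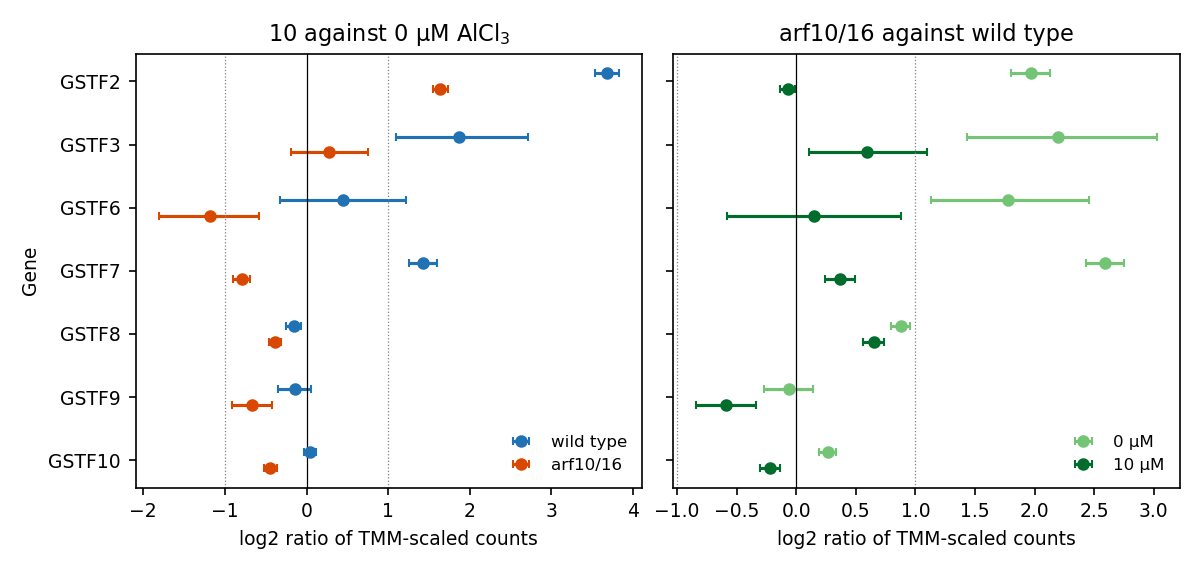
Log2 ratios of TMM-scaled counts for the 7 genes, with bars for the exact 95% counting interval; the left panel sets Al against no Al in each line, the right panel arf10/16 against wild type at each AlCl3 dose, and dotted lines mark a log2 ratio of 1 in size. GSTF2, GSTF3, GSTF6 and GSTF7 lie beyond 1 for arf10/16 against wild type at 0 µM, and no gene does at 10 µM.

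Counted over the members, 3 of 7 were higher with Al in wild type (GSTF2, GSTF3 and GSTF7) and 0 lower, where 14.4% of all 14739 loci were called higher and 12.1% lower. The median log2 ratio of the 7 was 0.41, against 0.01 over all loci. In arf10/16, GSTF2 was higher with Al and GSTF6 lower, against 10.8% and 9.41% of all loci, and the median of the 7 was -0.44 (all loci -0.02). Between the untreated lines 4 of 7 were higher in arf10/16 (GSTF2, GSTF3, GSTF6 and GSTF7), where 7.96% of all loci were called higher and 2.6% lower, and the median was 1.70 against 0.00 over all loci. These 4 are the near-identical pairs GSTF2 with GSTF3 and GSTF6 with GSTF7. The split of reads within each pair is uncertain, so the 4 calls may not be separate signals. With Al, 0 of 7 differed by size between the lines, where 5.89% of all loci did, and the median was 0.14 (all loci 0.04). For the line effect over both treatments, 0 of 7 passed edgeR's quasi-likelihood test, which called 0.862% of all loci; 3 of 7 had an unadjusted p under 0.05 (GSTF3, GSTF6 and GSTF8), against 15.2% of all loci. DESeq2 called 1 of 7 (1.19% of all loci) and limma 0 (0.0136%).

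The study asks whether the Al response of the double mutant differs, and the difference of the log2 ratios, arf10/16 minus wild type, was below 0 for each of the 7 genes. It was -2.21 for GSTF7 (95% counting interval -2.41 to -2.01), -2.03 for GSTF2 (-2.20 to -1.86), -1.55 for GSTF6 (-2.48 to -0.63) and -1.48 for GSTF3 (-2.36 to -0.61). For GSTF9, GSTF10 and GSTF8 it was -0.52, -0.48 and -0.23. The first 4 passed the size of 1 with an interval that excluded 0, where 4.13% of all loci did in this direction, and the median of the 7 was -1.48 (all loci 0.00). Those 4 genes are again the near-identical pairs with an uncertain split of reads, so the calls may not be separate signals. These differences use the same untreated libraries as the comparison of the lines without Al, so they are no separate evidence beside it. With 1 library in each group they have no test.

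Profiles over the 4 libraries were also set side by side, as the Euclidean distance of log2 levels centred on each gene's mean. GSTF9 and GSTF10 were the closest of all 21 pairs (0.399), followed by GSTF6 and GSTF8 (0.687). The near-identical genes GSTF6 and GSTF7 were 0.936 apart and GSTF2 and GSTF3 1.71 apart. GSTF3 was closer to GSTF7 (0.805), with which it shares 77.3% of its coding bases, than to its own copy GSTF2. Distances from GSTF2 to the members beyond GSTF3 were 2.40 to 3.39. The distances carry no counting interval. GSTF3 and GSTF6 had only 18 to 83 reads in a library, so the order of distances that involve them is uncertain.

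**Figure D4:**
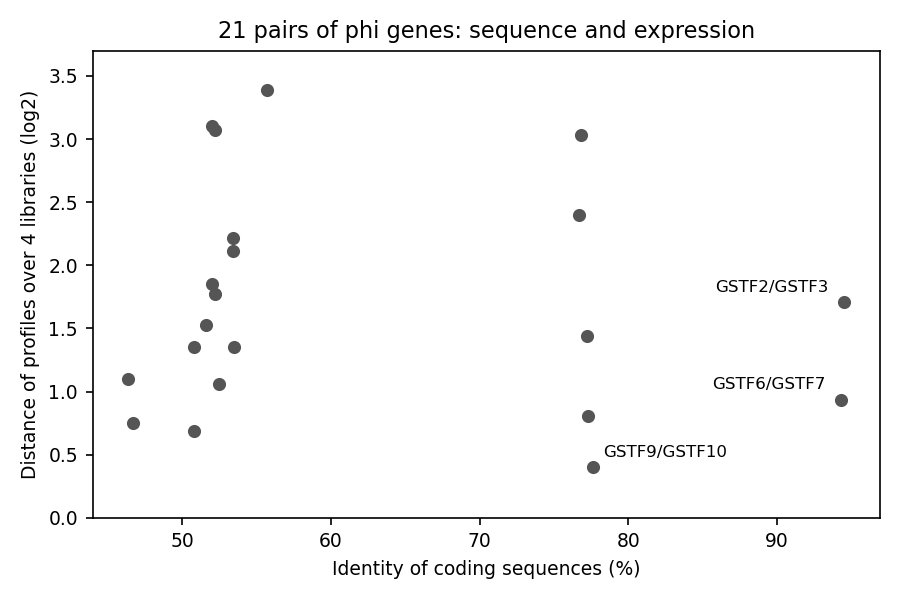
Identity of coding sequences in percent against the distance of expression profiles over the 4 libraries in log2 units, with 1 point for each of the 21 pairs of phi genes. The closest profiles belong to GSTF9 and GSTF10 at 77.6% identity, and GSTF2 and GSTF3, at 94.5% identity, are 1.71 apart. Points that involve GSTF3 or GSTF6 rest on few reads and are shown without counting error.

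Among 2573 loci with at least 200 reads on average, the locus with the profile nearest to GSTF2 was BRU6 (distance 0.209; 72, 759, 231 and 606 reads). The nearest to GSTF3 was FLOT1 (0.185), to GSTF6 GGP1 (0.180) and to GSTF7 NSL1 (0.356). AT3G14840 was nearest to GSTF8 (0.0536), AT1G60680 to GSTF9 (0.101) and AT3G15810 to GSTF10 (0.0663). With 4 libraries such closeness is a description only.

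The 250 bases before the annotated gene start were searched, for 6 of the genes (all but GSTF6), on both strands for the letters TGACG, the core of the as-1 type element that TGA factors bind, and TTGAC, the core of the W-box that WRKY factors bind. These motifs overlap where the letters TTGACG occur. TGACG was present before 3 of 6 genes (GSTF3, GSTF8 and GSTF10), against 18.6% of 27443 such windows, and TTGAC before 3 (GSTF3, GSTF7 and GSTF10), against 44.9%. The auxin response element TGTCTC was before 0 of 6 (10.9% of all windows), its variant TGTCGG before 0 (4.16%), GCCGCC before 0 (1.87%) and CACGTG before 0 (6.49%). The windows of GSTF7, the gene with the highest fold in untreated arf10/16, and of GSTF8 are shown, with TGACG and TTGAC of either strand in capitals. Both are RefSeq TAIR10.1 sequence in the direction of the gene: GSTF7 at chr1:659981-660230 on the minus strand, and GSTF8 at chr2:19556076-19556325 on the plus strand.
GSTF7: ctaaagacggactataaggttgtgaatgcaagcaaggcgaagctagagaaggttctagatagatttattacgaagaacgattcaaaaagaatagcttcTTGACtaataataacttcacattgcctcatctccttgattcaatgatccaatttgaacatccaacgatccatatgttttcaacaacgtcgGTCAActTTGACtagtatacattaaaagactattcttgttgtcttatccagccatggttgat
GSTF8: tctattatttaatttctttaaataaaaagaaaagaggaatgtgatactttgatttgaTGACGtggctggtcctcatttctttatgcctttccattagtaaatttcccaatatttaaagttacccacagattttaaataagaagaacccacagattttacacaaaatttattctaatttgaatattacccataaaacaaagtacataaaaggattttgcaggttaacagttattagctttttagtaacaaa

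GSTF7 had 3 matches to TTGAC, and GSTF8 had 1 match to TGACG. GSTF2 and GSTF9 had neither in their windows. The window depends on the annotated start: the RefSeq transcript of GSTF2 is 1471 bases long, while the deposited tables imply a model of 989 bases, and the 2 lengths are 1213 and 925 for GSTF7 and 1739 and 1734 for GSTF8. A match is a description of letters and not of binding.

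Among the other phi genes, GSTF14 moved opposite to GSTF2. It had 913 and 42 reads in wild type without and with Al and 1089 and 104 in arf10/16, and it fell by 3.76 ± 0.31 on the log2 scale with Al (adjusted p = 0.000227, edgeR's quasi-likelihood test). GSTF11, an enzyme of aliphatic glucosinolate synthesis, fell too (-1.42 ± 0.34, adjusted p = 0.0147 in the same edgeR test; 44, 16, 28 and 9 reads). GSTF13 had 28 and 3 reads in wild type and 13 and 10 in arf10/16. GSTF12, of flavonoid transport, had 1 to 4 reads and was below the filter. GSTF4 and GSTF5 were not among the listed loci, so they could not be analysed. Of the 3 measured, 0 rose and 2 fell in the edgeR fit, where 12.8% of all loci fell, and DESeq2 called 1. The difference of their log2 ratios, arf10/16 minus wild type, ran from -0.04 to 2.3, where all 7 members were below 0. Its median was 1.09 (all loci 0.00). With Al their median log2 ratio of arf10/16 to wild type was 1.45 (all loci 0.04). These values rest on few reads for GSTF11 and GSTF13 and were not tested.

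Tau glutathione S-transferases, the large sister class of plants, split in their Al response: in the edgeR fit 9 of 26 measured rose and 5 fell, with a median effect of 0.64 (all loci -0.01), against 15.2% and 12.8% of all loci. GSTU22 rose by 5.21 ± 0.25 on the log2 scale (adjusted p = 2.11e-05, edgeR) and GSTU4 by 4.35 ± 0.34 (adjusted p = 0.000107, edgeR). GSTU14 (-1.86 ± 0.24) and GSTU27 (-1.44 ± 0.20) fell. By size, 12 of 26 tau genes were higher and 5 lower with Al in wild type, against 14.4% and 12.1% of all loci. The tau median there was 1.15, where the 7 phi genes had 3 higher, 0 lower and a median of 0.41. In arf10/16, 8 of 26 tau genes were higher with Al and 5 lower (10.8% and 9.41% of all loci), with a median of 0.17. Between the untreated lines 3 of 26 tau genes were higher and 1 lower in arf10/16 by size, near the 7.96% and 2.6% of all loci. Their median was 0.39, where the 7 phi genes had 4 higher and a median of 1.70. The 3 other measured phi genes had 0 higher and 0 lower there, with a median of -0.47. The difference of the log2 ratios of Al to no Al, arf10/16 minus wild type, was lower by size for 7 of 26 tau genes and higher for 1. Of all loci, 4.13% were lower by this rule. The tau median of this difference was -0.54, where the 7 phi genes had 4 lower and a median of -1.48, so values below 0 were not particular to the 7. The differences between these sets of genes were not tested.

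Of the 10 measured genes of the theta, zeta, lambda and dehydroascorbate reductase classes, 2 rose with Al and 0 fell in the edgeR fit (4 had an unadjusted p under 0.05; DESeq2 called 0 and limma 2), against 15.2% and 12.8% of all loci. These were GSTL3 of the lambda class (1.19 ± 0.22, adjusted p = 0.00505, edgeR) and DHAR2, which recycles ascorbate (0.73 ± 0.22, adjusted p = 0.0403, edgeR). Of 9 measured genes of glutathione synthesis, reduction, breakdown and transport, 1 rose and 0 fell, a share near that of all loci. This was ABCC3, a vacuolar transporter known to carry glutathione conjugates, with 8 and 31 reads in wild type and 13 and 27 in arf10/16 (1.57 ± 0.39, adjusted p = 0.0173, edgeR; 0 by DESeq2 and limma). Between the untreated lines 1 of these 9 was higher in arf10/16 by size and 0 lower, against 7.96% and 2.6% of all loci, with a median of -0.09. This was PCS1 (log2 ratio 2.26), with 289 and 223 reads in wild type without and with Al and 1249 and 387 in arf10/16. For the line effect edgeR called 0 of the 9 and DESeq2 1 (1.19% of all loci). Among 6 measured glutathione peroxidases GPX2 rose with Al (1.01 ± 0.19, adjusted p = 0.00502, edgeR) and 0 fell, again near the share of all loci.

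Of 5 measured genes of camalexin synthesis, the pathway in which GSTF6 acts, 1 rose and 2 fell with Al, against 15.2% and 12.8% of all loci. DESeq2 called 2 of 5 (11.9% of all loci) and limma 3 (26.2%). PAD3, the P450 of the last step, rose (1.49 ± 0.23, adjusted p = 0.00218, edgeR). CYP79B3 (-1.18 ± 0.19, adjusted p = 0.00236, edgeR) and CYP71A12 (-0.92 ± 0.19, adjusted p = 0.00859, edgeR), which act on early indole intermediates, fell. Between the untreated lines 2 of these 5 were higher in arf10/16 by size and 0 lower, with a median of 0.98, against 7.96% and 2.6% of all loci and a median of 0.00. PAD3 went the other way, with 50 reads in untreated wild type and 30 in untreated arf10/16. GGP1, the locus nearest to GSTF6 above, belongs to this list. For the line effect over both treatments 0 of 5 passed edgeR's quasi-likelihood test (0.862% of all loci), and 5 had an unadjusted p under 0.05 (15.2% of all loci). Of 5 measured TGA factors and partners, TGA7, a bZIP factor, rose with Al (2.07 ± 0.19, adjusted p = 0.00019, edgeR; 96 and 413 reads in wild type, 74 and 260 in arf10/16) and 0 fell, also near the 15.2% of all loci that rose.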

How the data were processed

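Root RNA was sequenced in 4 libraries. The authors deposited whole-number read counts per transcript model and RPKM values of the same models, per the file headers and names; the aligner, counter, build, read length and strand setting are not given in the sources used. Both deposited tables together returned whole model lengths within 0.01 bp for 100% of 25092 models. Deposited counts of a locus's models were summed, with empty marks as 0; detection p-value columns held 0 values. The members and gene lists were chosen with earlier results of these data known. Named genes were the 7 members and, from each other pathway list, the 2 with the smallest adjusted p in each direction, plus the locus with the nearest profile to each member. GSTF12, GSTF13, PCS1, PSBO1, LHCA1 and RBCS3B were named after their values were seen, and the marker lists are otherwise given as sums. Loci were kept by filterByExpr and scaled by TMM. Pairwise log2 ratios used a prior count of 2, Clopper-Pearson intervals of 95% and the size rule. The additive model used edgeR 4.0.16 (R 4.3.3; quasi-likelihood, robust, Benjamini-Hochberg over 14739 loci, threshold 0.05; common dispersion 0.0259). SE is the absolute effect over the square root of F. p-values take departure from the additive model as error, adjusted with information from all loci, and measure no spread between replicates. Alternatives used DESeq2 1.42.0 and limma 3.58.1 (log2 of RPKM + 1). Sequences and places are from RefSeq's TAIR10.1 by locus identifier (Biopython 1.88), while the authors' build is unknown; sequence matches do not enter the counts. The window before GSTF6 is not reported here.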

Additional observations from a re-analysis of the deposited data

Results flagged for a closer look

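The genes GSTF6, GSTF7 and GSTF10 had Al responses of opposite sign in wild type and arf10/16; with 1 library per group these differences were not tested. For GSTF7 the log2 ratio of Al to no Al was 1.42 in wild type and -0.79 in arf10/16, a difference of -2.21. For GSTF6 it was 0.41 and -1.14, a difference of -1.55, where the counting interval of the wild-type ratio included no change. For GSTF10 it was 0.04 and -0.44, a difference of -0.483, and the wild-type value was -0.06 with scaling by total counts, which ends the opposite sign. Coding stretches of GSTF7 and GSTF6 are identical over up to 116 bases, and the share of reads this moves between them was not tested.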

How the results depend on the processing

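The counts of members past the size rule were the same in every alternative run (total counts, DESeq2's size factors, the most-read model of each locus and, for pairs of libraries, a prior count of 0.5 and ratios of RPKM + 1). In the additive model, leaving out the filter gave 2 members instead of 1 for Al (GSTF3 added) and 3 instead of 0 for the line (GSTF3, GSTF6 and GSTF8); the same setting called 1267 loci for the line against 127, and the cause was not tested. DESeq2 gave 1 member for the line (GSTF7). The line effect over all loci was 256 with DESeq2's size factors, 319 without robust estimation (chosen after seeing the data) and 2 with limma on RPKM. For Al over all loci DESeq2 gave 1749 against 4131; total counts gave 1991 rising and 2221 falling, against 2238 and 1893. The line effect of GSTF10 turned from 0.02 to -0.0911 with total counts and -0.0905 with limma on RPKM, none past the test. No paired analysis by replicate number was possible because each group has 1 library, and for the same reason no replicate could be left out; the additive model itself compares Al within line. Depth limits GSTF3 and GSTF6 most, with 18 to 83 reads in a library.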
